A study of Mus musculus with 72 samples.

Results

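The genes described here are 9 regulators of pluripotency, chosen by name: Pou5f1, Sox2, Otx2, Fgf5, Pou3f1, Lin28a, Lin28b, Utf1 and Sall4. They are 9 of the 22556 genes counted in the series, and 8 of them had counts. Their total RNA was followed from embryonic stem (ES) cells to day 52 of neural differentiation. RNA still attached to chromatin, most of it newly made, was sequenced (ChrRNA-seq) in 72 libraries of mouse XX ES cells and of the neural precursor cells (NPCs) made from them. All cells carry a 129S (Dom) and a CAST/EiJ (Cast) genome and a TetOn promoter in place of the Xist promoter of a single X chromosome, on the 129S allele in iXist-ChrX_Dom and on the Cast allele in iXist-ChrX_Cast.

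The groups were wild-type (WT) iXist-ChrX_Dom at days 2, 3, 5, 7, 15, 21, 35 and 52, WT iXist-ChrX_Cast at the same days up to day 35, and SmcHD1 knockout (KO) clones made with Cas9. Clone A3 was derived from the Dom line, whereas the Cast line gave both D5 and G6. Every day 2 to 52 sample had been in N2B27 medium with 1 µg/mL doxycycline, which switches Xist on, and EGF and FGF were added from day 7. The ES libraries, without doxycycline, were of the KO clones only (2 of A3, 2 of D5 and 1 of G6), so a change from ES could be followed only in KO cells, where genotype is shared by all samples compared. Each KO line is a single clone, which limits it as a model of the deletion. From day 15 on each clone and day had 1 library. In each KO clone the day 15 library carries another replicate number than the later libraries, so day 15 and replicate number cannot be told apart. Libraries marked R1 and R2 of a replicate were summed, which left 65 replicates. The study's text treats the days up to 7 as repeats of the time course and the later days as individual samples, while the labels name no cultures, so p-values measure the spread between these samples.

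Pluripotent cells pass from a naive state, as in ES cells with LIF, through a formative or primed state before they choose a lineage. Pou5f1 (OCT4) and Sox2 bind DNA together and hold the network up in both states, and Sall4 is a zinc finger factor of the same network. Utf1 is a chromatin-bound protein of undifferentiated cells. Otx2 and Pou3f1 (OCT6) are transcription factors and Fgf5 a secreted growth factor that mark the primed state. Lin28a and Lin28b bind RNA and block the maturation of let-7 microRNAs, and their levels are known to drop as cells differentiate.

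The promoters of the members are shown first, since the values that follow are of newly made RNA from these genes. RefSeq (GRCm38.p6) gave an entry for 7 members, and Pou3f1 and Sall4 had none. The 4 printed below, 250 bases up to the gene start and written 5′ to 3′ on the gene's strand, belong to members of different roles: a core factor, a primed factor, a growth factor and an RNA-binding protein. Capitals mark a GC box (GGGCGG or CCGCCC) or a CCAAT box (CCAAT or ATTGG), each searched on both strands.
Pou5f1 (chr17:35505782-35506031, plus strand): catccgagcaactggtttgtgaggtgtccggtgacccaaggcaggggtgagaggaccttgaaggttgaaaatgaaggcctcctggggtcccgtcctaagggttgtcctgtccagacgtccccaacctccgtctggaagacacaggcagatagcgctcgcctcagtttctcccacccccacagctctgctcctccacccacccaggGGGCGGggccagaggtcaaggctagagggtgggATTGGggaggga
Otx2 (chr14:48667645-48667894, minus strand): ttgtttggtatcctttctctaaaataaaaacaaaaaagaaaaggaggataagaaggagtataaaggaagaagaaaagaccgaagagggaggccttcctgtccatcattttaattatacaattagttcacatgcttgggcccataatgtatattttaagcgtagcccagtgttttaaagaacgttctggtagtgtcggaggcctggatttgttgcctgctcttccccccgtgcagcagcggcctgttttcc
Fgf5 (chr5:98253934-98254183, plus strand): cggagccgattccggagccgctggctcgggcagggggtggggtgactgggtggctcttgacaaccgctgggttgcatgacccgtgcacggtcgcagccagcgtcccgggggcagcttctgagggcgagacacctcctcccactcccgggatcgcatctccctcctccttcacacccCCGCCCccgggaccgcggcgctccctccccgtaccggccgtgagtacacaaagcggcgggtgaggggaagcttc
Lin28b (chr10:45470202-45470451, minus strand): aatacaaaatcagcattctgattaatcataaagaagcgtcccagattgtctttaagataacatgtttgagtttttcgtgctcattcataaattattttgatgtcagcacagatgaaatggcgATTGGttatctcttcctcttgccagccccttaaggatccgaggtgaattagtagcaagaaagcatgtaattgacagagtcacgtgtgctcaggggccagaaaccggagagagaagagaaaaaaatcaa

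A GC box stood in 4 of the 7 promoters (Pou5f1, Sox2, Fgf5 and Utf1), and in 32.7% of 32851 promoters of the same length. A CCAAT box stood in 3 (Pou5f1, Sox2 and Lin28b), and in 33.8% of all promoters. The octamer ATGCAAAT, searched on both strands, was in none of the 7 windows and in 1.60% of all. GC content was 39.2% for Lin28b and 42% for Otx2, against 61.2% to 72% for the other 5 and a median of 52.4% over all promoters. The promoters of Otx2 and Lin28a held none of these motifs.

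Between 9344054 and 31216487 fragments were counted per library in the Dom line, and between 13211298 and 31107643 in the Cast line. Levels are given as counts per 1000000 counted fragments (RPM), and 3 counts, taken as the floor of detection, were 0.0533 to 0.321 RPM per replicate. Such floors cover counting error only, while the intervals of fitted changes given below also hold the spread between replicates. Xist fragments came mainly from the expected allele in 67 of 67 induced libraries. Smchd1 gave median levels of 489, 497 and 553 RPM in A3, D5 and G6, against 549 and 604 in WT, so fragments over the whole gene do not check the knockout. Fragments were counted over whole genes, introns included.

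Sox2, the partner of Pou5f1 in pluripotent cells and a factor of neural precursors, could not be followed. It had 0 counts in 72 of 72 libraries. Its span (mm10 3:34650004-34652460, plus strand) lies 100% inside the long noncoding gene Sox2ot on the same strand (3:34560380-34677993), and fragments over both genes were assigned to neither. A count of 0 there says nothing about Sox2 RNA. Sox2ot itself, whose counts leave out the Sox2 span, ranged from 22.1 to 45.9 RPM in the 5 ES replicates, from 7.95 to 23.9 at days 2 and 3, and from 2.84 to 13.2 at days 5 and 7. Its highest value was 53.8 RPM, in WT Dom at day 15. Sox1, which lies 100% inside Gm5607, also had 0 counts.

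The 8 measured members ranked differently by median level early and late in the course. Per kilobase of gene, where members can be set side by side, median levels at days 2 and 3 were 13.7 RPM per kb for Pou5f1, 7.92 for Lin28a, 5.97 for Utf1, 5.88 for Otx2, 5.33 for Sall4, 3.41 for Lin28b, 3.05 for Fgf5 and 1.66 for Pou3f1 (n = 21 replicates). Each neighbouring pair in that order overlapped in its range. From day 15 on the order of medians was Lin28a at 2.19 RPM per kb, Lin28b at 1.04, Sall4 at 0.857, Pou5f1 at 0.844, Fgf5 at 0.618, Otx2 at 0.582, Utf1 at 0.158 and Pou3f1 at 0.154 (n = 17). The medians of both Lin28 genes thus stood above that of Pou5f1 late and not early, though their late ranges overlapped.

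**Figure D1:**
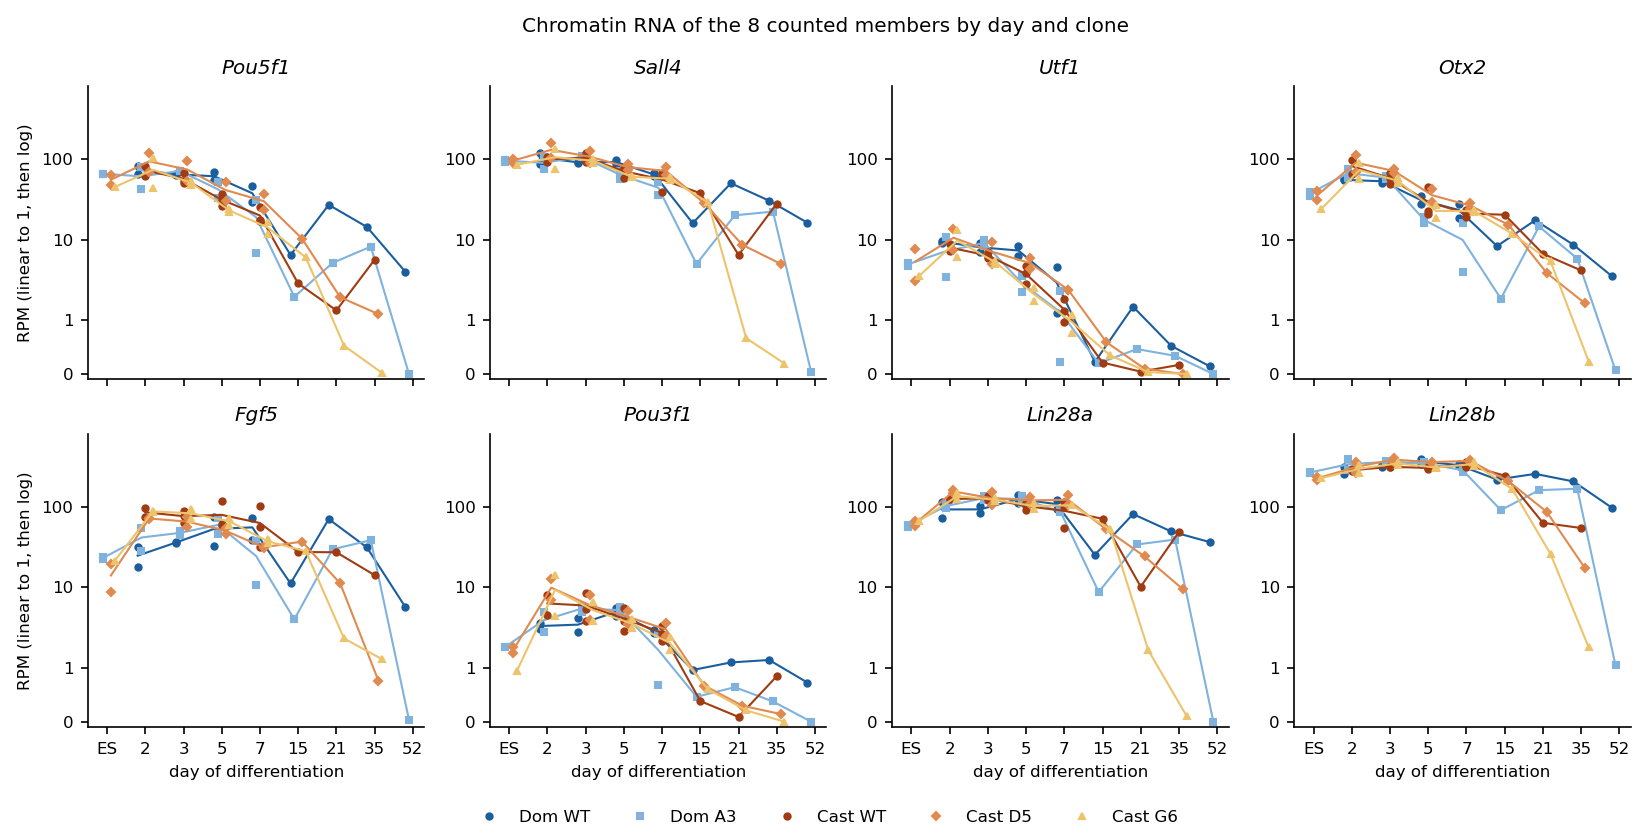
Level (RPM, linear up to 1 and logarithmic above) of the 8 measured members against day, with ES at the left, in WT and KO clones of both lines. Points are replicates and lines join the means of a clone. With 1 or 2 ES replicates per clone, Otx2, Fgf5, Pou3f1, Lin28a and Lin28b lie higher at days 2 and 3 than in ES in each of the 3 KO clones, as 14.6% of 16680 genes do, and late libraries spread over a wide range.

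Differences between periods were tested over all genes with edgeR (quasi-likelihood, Benjamini-Hochberg), with ES, days 2 and 3, days 5 and 7, and days 15 to 52 as periods and 1 fit for each genotype and line. A member is called where its adjusted p is below 0.05. In bulk RNA, fewer cells of a type and less RNA per cell cannot be told apart. From ES to days 2 and 3, D5 and G6 had 2 of 8 members called higher (Fgf5 and Pou3f1), where 16.7% of 17743 genes were called higher. A3 had 0 of 8 called, against 12.9% of 16785 genes, and 0 members also had an unadjusted p below 0.05 or were called by DESeq2. The A3 fit took its spread in part from 4 late libraries of different days. With each day fitted by its own mean, 1 member (Lin28a) was called higher in A3, beside 12.2% of genes. In D5 and G6 that fit called 4 of 8 members higher, where 3860 of 17743 genes were. In RPM, 5 members were higher without overlap in each of the 3 KO clones (Otx2, Fgf5, Pou3f1, Lin28a and Lin28b), where 14.6% of 16680 genes were. ES had only 2, 2 and 1 replicates there.

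From days 2 and 3 to days 5 and 7, the members called in these period fits were all lower. In WT Cast 3 of 8 were called lower (Pou5f1, Otx2 and Utf1), beside 18.9% of 15350 genes. In D5 and G6 4 of 8, Pou3f1 added, were called lower, beside 22%, and in D5 alone 0 (12.7% of genes) and in G6 alone 1 (10.7%). In WT Dom 0 of 8 were called, where 13.8% of 15312 genes were called in either direction. DESeq2 called 1 member lower there (Otx2), beside 9.52% of genes, which was also the 1 with an unadjusted p below 0.05. A3 had 0 of 8 called, beside 16% of genes, with 2 members (Otx2 and Utf1) below 0.05 unadjusted and 2 called lower by DESeq2, beside 11.4%.

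Other fits of this step called more members, and some of them higher. With each day given its own mean, 1 was called lower in WT Dom (11.8% of genes) and 4 in A3 (16.4%). WT Cast had 5 called lower (23.9%) and 1, Lin28b, called higher (23.7%). In D5 and G6 that fit called 5 lower, where 4588 of 17743 genes were. With the replicate number as a block over the numbered days alone, WT Dom had Otx2 called lower (12% of genes) and Fgf5 and Lin28a called higher (14.3%), and WT Cast had 5 members called lower (25.3%). In D5 and G6 that block left the same 4 members called lower.

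From days 5 and 7 to the late days the fall was broad. WT Dom had 6 of 8 members called lower, beside 11.7% of genes, all but Fgf5 and Lin28b. WT Cast had 7 of 8, beside 14.3%, all but Lin28a. A3 had 3 of 8 (Pou5f1, Pou3f1 and Utf1), beside 11.9%, and D5 and G6 had 8 of 8, beside 26.8% of genes. The A3 count rested on its libraries of day 5 and day 52: it was 1 without either replicate of day 5 and 6 without day 52. In G6 alone the count of D5 and G6 was 3, beside 13.8% of genes.

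Against ES, the late days of A3 had 4 of 8 members called lower (Pou5f1, Otx2, Utf1 and Sall4), beside 26.1% of genes. Those of D5 and G6 had 5 of 8 (the same 4 and Pou3f1), beside 32%. The A3 count was 2 without either ES library or the day 15 library. With each day fitted by its own mean, 8 of 8 were called lower in both genotypes, beside 34.8% of genes in A3 and 36.2% in D5 and G6. In none of these fits was a member called higher late than in ES. These comparisons share their libraries within a genotype, so their counts are not independent of each other.

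**Figure D2:**
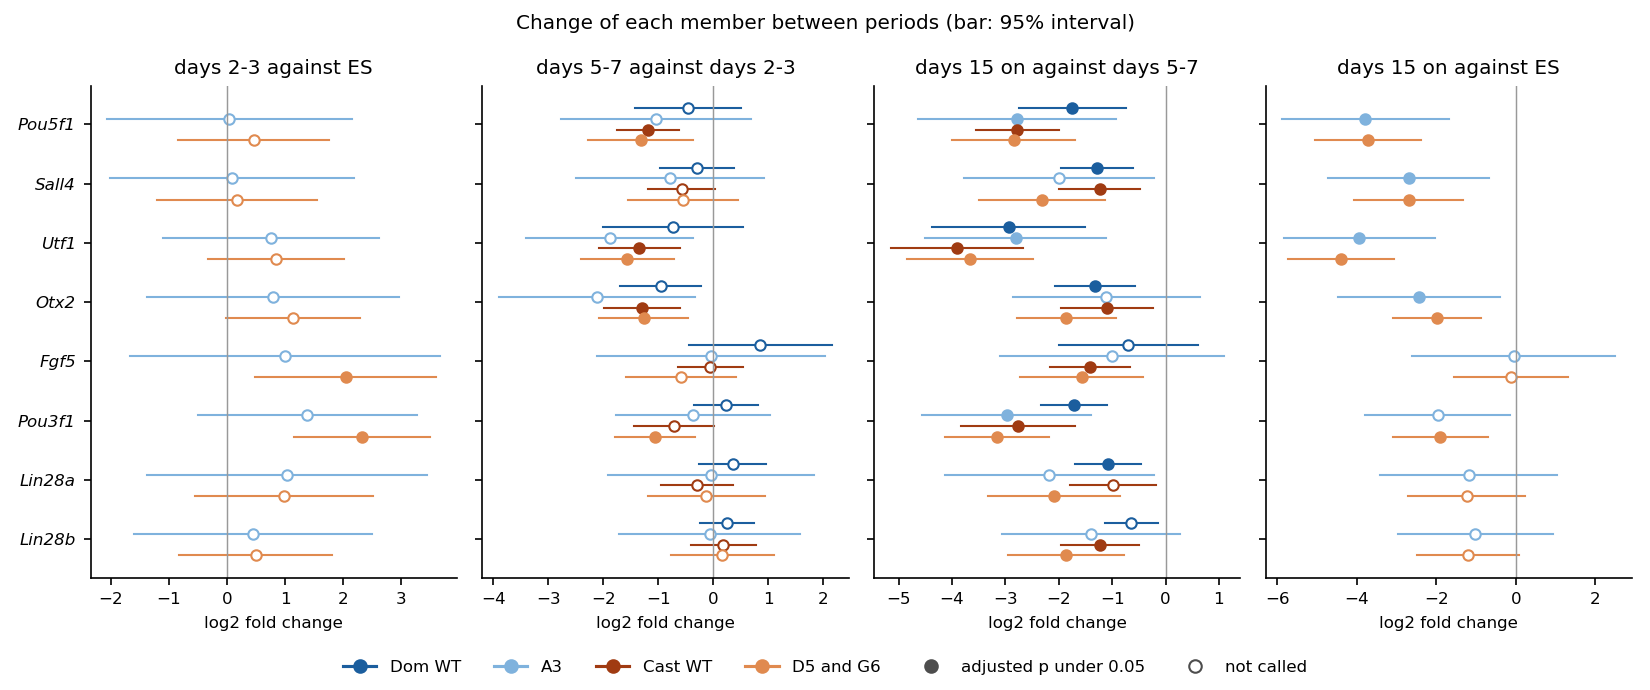
Difference in level (log2 fold change, x axis) of each member between successive periods and between late days and ES, by genotype and line. Bars are 95% intervals and filled points have an adjusted p below 0.05 (edgeR). Falls from days 5 and 7 to late days are called for 6, 7, 3 and 8 of 8 members in WT Dom, WT Cast, A3, and D5 and G6.

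Pou5f1 (mm10 17:35506031-35510777, plus strand), the core factor, was not called changed from ES to days 2 and 3 and was called lower late in every genotype and line. In the ES libraries it was at 64.9 and 65.8 RPM in A3, 47.9 and 62.2 in D5 and 44.7 in G6. At days 2 and 3 it was at 79.5, 41.9, 70 and 71.7 RPM in A3, at 68.6, 118, 52.5 and 95 in D5, and at 44.1, 102, 47.4 and 53.7 in G6. The groups overlapped in each clone, and the difference from ES was 0.04 ± 0.97 (log2 fold change ± SE, adjusted p = 0.984) in A3 and 0.46 ± 0.63 (adjusted p = 0.596) in D5 and G6.

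In WT, Pou5f1 was at 82.3, 64.8, 63.7 and 64.9 RPM in Dom and 61.3, 82.5, 50.2, 53.1 and 67 in Cast at days 2 and 3. By days 5 and 7 Dom libraries were at 67.9, 53.9, 29.1 and 45.9 RPM, and the 6 Cast libraries ranged from 16.8 to 36.3 around a median of 25.7. All Cast libraries were then below those of days 2 and 3, as for 16% of genes, a fall of 1.18 ± 0.26 on the log2 scale (adjusted p = 0.00343), whereas the Dom libraries overlapped (-0.46 ± 0.45, adjusted p = 0.512). The difference between the WT lines in this change was -0.71 (95% interval -1.78 to 0.35, adjusted p = 0.820).

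Late Pou5f1 levels in WT were 6.44, 26.9, 14.3 and 4.01 RPM in Dom (days 15, 21, 35 and 52) and 2.85, 1.32 and 5.62 in Cast (days 15, 21 and 35). In both lines every late library was below every library of days 5 and 7, as for 7.07% of 15029 genes, with falls of 1.74 ± 0.46 (adjusted p = 0.0193) and 2.78 ± 0.36 (adjusted p = 8.17e-05) on the log2 scale. In A3 the late libraries were at 1.95, 5.13, 8.17 and 0 RPM, in D5 at 10.3, 1.93 and 1.19, and in G6 at 6, 0.526 and 0.0178, the last being under the floor of 3 counts. Relative to ES, Pou5f1 fell by 3.78 ± 0.97 in A3 (adjusted p = 0.00598) and by 3.71 ± 0.65 in D5 and G6 (adjusted p = 3.12e-05). The mouse genome holds sequences related to Pou5f1, and only uniquely aligned fragments were counted, so its level may leave out shared reads.

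Utf1 (7:139943855-139945112, plus strand), a short gene of 1258 bases and few fragments, gave the largest median loss late. ES levels were 5.14 and 4.67 RPM in A3, 3.1 and 7.57 in D5 and 3.53 in G6, and levels at days 2 and 3 ranged from 3.47 to 13.6 RPM over all 21 replicates (median 7.50). At days 5 and 7 Dom WT had 6.21, 8.42, 1.24 and 4.62 RPM, and Cast WT ranged from 0.964 to 4.64 (median 2.29, n = 6), a fall of 1.35 ± 0.34 in Cast (adjusted p = 0.00760). Late levels did not pass 1.47 RPM in any of 17 libraries. From days 5 and 7 to late days Utf1 fell by 2.94 ± 0.66 in WT Dom (adjusted p = 0.00965), 3.91 ± 0.58 in WT Cast (adjusted p = 0.000210), 2.81 ± 0.78 in A3 (adjusted p = 0.0230) and 3.67 ± 0.57 in D5 and G6 (adjusted p = 1.36e-05). Fitted changes of so few fragments depend on the prior count.

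Sall4 (2:168748331-168767201, minus strand), the zinc finger factor, was not called changed before the late days in the period fits. With each day its own mean it was called lower at days 5 and 7 in A3 (-0.80) and WT Cast (-0.57), and with the replicate block in WT Cast (-0.62). It was at 84.4 to 101 RPM in ES, 74.2 to 155 at days 2 and 3 and 35.4 to 96.9 at days 5 and 7 (medians 92.0, 101 and 62.0). In all but WT Dom, every library of days 5 and 7 was below those of days 2 and 3, as for 7.87% of 15299 genes, and the period fits gave differences of -0.56 to -0.78 on the log2 scale. Late WT Dom libraries were at 16, 49.8, 30.3 and 16.2 RPM and late WT Cast libraries at 37.5, 6.45 and 27.9, all below days 5 and 7 of their line. The falls were 1.28 ± 0.31 (adjusted p = 0.0140) and 1.23 ± 0.36 (adjusted p = 0.0167) on the log2 scale. In the KO clones late levels ran from 0.0336 RPM in A3 at day 52 to 28.9 in G6 at day 15, and against ES Sall4 fell by 2.69 ± 0.94 in A3 (adjusted p = 0.0286) and by 2.69 ± 0.67 in D5 and G6 (adjusted p = 0.00129).

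Otx2 (14:48657676-48667644, minus strand), which redirects OCT4 to new enhancers on leaving the naive state, was the member whose day of highest level was most regular. Its clone mean was highest at day 2 in 5 of 5 clones. In the WT clones, without ES libraries, day 2 was the first day measured, so a rise before it could be seen only in KO clones. In ES it was at 39.4 and 35 RPM in A3, 31.1 and 39.8 in D5 and 23.9 in G6. By days 2 and 3 it was at 74.5, 58.6, 60.9 and 55.9 in A3, 69.1, 110, 66.9 and 74.8 in D5, and 55.5, 90.1, 50 and 57.2 in G6, above the 2, 2 and 1 ES replicates in each clone. The period fits called neither difference: 0.80 ± 1.00 in A3 (adjusted p = 0.647) and 1.14 ± 0.56 in D5 and G6 (adjusted p = 0.115).

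By days 5 and 7 every clone's Otx2 libraries were below those of days 2 and 3, as for 4.96% of 15029 genes. WT Dom went from 54.1, 56, 49.6 and 55.8 RPM to 34.5, 27.5, 18.5 and 27.9 (-0.96 ± 0.34, adjusted p = 0.0775), and the median of WT Cast went from 65.5 (49.1 to 97.2, n = 5) to 21.9 RPM, with a highest value of 44.4 (n = 6). Otx2 fell by 1.30 ± 0.32 in WT Cast (adjusted p = 0.00678) and by 1.27 ± 0.39 in D5 and G6 (adjusted p = 0.0108), and the change in A3 was -2.12 ± 0.82 (adjusted p = 0.0950). Late levels were 8.3, 17.4, 8.6 and 3.53 RPM in WT Dom and 20.3, 6.67 and 4.14 in WT Cast. The Cast library of day 15 lay among those of days 5 and 7, and the late fall there was 1.09 ± 0.40 (adjusted p = 0.0498). That call was lost in 7 of 9 fits without a replicate, where the change ran from -1.97 to -0.73.

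Fgf5 (5:98254183-98277033, plus strand), the growth factor of the primed epiblast, rose early in D5 and G6 and kept the highest share of its early level among the primed markers. In ES it was at 24 and 22.3 RPM in A3, 19.2 and 8.78 in D5 and 21.3 in G6. At days 2 and 3 it was at 27.8, 54.9, 44.2 and 50.1 in A3, 69.8, 72.5, 56.2 and 73.8 in D5, and 88.5, 85.9, 70.6 and 94.1 in G6. All 3 clones lay above their ES libraries, and the rise in D5 and G6 was 2.04 ± 0.75 on the log2 scale (adjusted p = 0.0366). In A3 the difference was 1.00 ± 1.24 (adjusted p = 0.639). The call in D5 and G6 was lost without any 1 of the 3 ES libraries and in either clone alone (adjusted p = 0.112 in D5 and 0.426 in G6).

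In WT, Fgf5 was at 31.6, 17.6, 36.2 and 35.4 RPM in Dom and 74.7, 95, 75.9, 62.9 and 89.3 in Cast at days 2 and 3, with no overlap between the lines, as for 12.3% of 15029 genes in either direction. At days 5 and 7 Dom had 73.6, 32.2, 72.4 and 38 RPM, and Cast 31.5 to 117 (median 59.7, n = 6), and neither line was called changed (0.86 ± 0.60 and -0.05 ± 0.28). Late Dom libraries were at 11.1, 69.9, 31.1 and 5.72 RPM and overlapped with days 5 and 7 (-0.70 ± 0.60, adjusted p = 0.394). Late Cast libraries were at 27.3, 27.1 and 14.1 RPM, below every Cast library of days 5 and 7 (16.4% of genes were), a fall of 1.41 ± 0.35 (adjusted p = 0.00720).

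Pou3f1 (4:124657645-124660655, plus strand), a POU factor of the primed epiblast and of neural cells, had the largest early rise on the log2 scale among the members in D5 and G6. ES levels were 1.82 and 1.84 RPM in A3, 1.8 and 1.51 in D5 and 0.946 in G6. By days 2 and 3 A3 was at 5, 2.79, 4.99 and 5.9 RPM, D5 at 6.91, 12.8, 3.93 and 8.12, and G6 at 4.4, 14.2, 3.82 and 6.54. Every KO library then lay above its clone's ES libraries. Pou3f1 rose by 2.33 ± 0.57 in D5 and G6 (adjusted p = 0.00313), and the difference in A3 was 1.38 ± 0.87 (adjusted p = 0.318). The call in D5 and G6 held without any 1 ES library but was not made in G6 alone, which had 1 ES library.

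After day 7 Pou3f1 fell in all 4 fits. WT Dom went from 5.55, 4.37, 2.69 and 2.99 RPM at days 5 and 7 to 0.961, 1.17, 1.25 and 0.729 late, and WT Cast from 2.15 to 5.58 down to 0.383, 0.0883 and 0.845. The falls were 1.71 ± 0.28 (adjusted p = 0.00244), 2.76 ± 0.50 (adjusted p = 0.000910), 2.98 ± 0.73 in A3 (adjusted p = 0.0143) and 3.16 ± 0.47 in D5 and G6 (adjusted p = 8.14e-06). The highest late level of Pou3f1 was 1.25 RPM.

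Lin28a (4:134003329-134018816, minus strand), an inhibitor of let-7 maturation, was about 2 times as high at days 2 and 3 as in ES in the KO clones. ES libraries were at 59.4 and 55.6 RPM in A3, 66.6 and 57.1 in D5 and 66.3 in G6. On days 2 and 3 the KO libraries ran from 96.1 to 161 RPM, and at days 5 and 7 from 86.1 to 139. The period fits did not call the early difference. It was 1.04 ± 1.11 in A3 (adjusted p = 0.580) and 0.98 ± 0.74 in D5 and G6 (adjusted p = 0.308). With each day its own mean Lin28a was called higher in A3. WT levels were 92.2 ± 17.9 RPM in Dom (SD, n = 4) and 125 ± 4.80 in Cast (SD, n = 5) at days 2 and 3, and 116 ± 18.1 (n = 4) and 94.8 ± 21.9 (n = 6) at days 5 and 7.

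Late Lin28a was at 25.2, 80.6, 49.1 and 36.3 RPM in WT Dom and 70.5, 10.2 and 48.5 in WT Cast. It fell by 1.09 ± 0.28 in Dom (adjusted p = 0.0187), and the difference in Cast was -0.98 ± 0.38 (adjusted p = 0.0601). KO libraries reached from 0 RPM (A3, day 52) and 0.107 (G6, day 35) to 52.1 (D5 and G6, day 15). Against ES the differences were -1.18 (95% interval -3.41 to 1.05) in A3 and -1.24 (-2.70 to 0.23) in D5 and G6, intervals that hold both no change and a large fall.

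Lin28b (10:45376618-45470201, minus strand), the paralog of Lin28a, was not called changed up to day 7 in the period fits, and was called higher at days 5 and 7 only in WT Cast with each day its own mean (0.20, adjusted p = 0.0490). It was at 214 to 268 RPM in ES, 251 to 403 at days 2 and 3, and 265 to 390 at days 5 and 7 (n = 5, 21 and 22). Each KO clone was higher at days 2 and 3 than in its ES libraries, by 0.45 ± 0.95 in A3 and 0.50 ± 0.64 in D5 and G6, and neither difference was called. Late levels were 216, 254, 205 and 97.1 RPM in WT Dom and 241, 62.8 and 54.2 in WT Cast. Lin28b fell by 1.22 ± 0.34 in WT Cast (adjusted p = 0.0139), and the difference in WT Dom was -0.64 ± 0.23 (adjusted p = 0.0561).

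In the KO clones late Lin28b was at 90.4, 160, 166 and 1.08 RPM in A3 (days 15, 21, 35 and 52), 206, 86 and 17.2 in D5 and 164, 25.8 and 1.79 in G6 (days 15, 21 and 35). In D5 and G6 the level was lower at each later day, whereas A3 had its lowest value by far at day 52. The day 15 library of each KO clone has another replicate number than the later ones, so steps from day 15 may be between replicates. Against ES the differences were -1.02 (95% interval -2.97 to 0.93) in A3 and -1.20 (-2.49 to 0.09) in D5 and G6.

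A member was termed transient where it was called higher at days 2 and 3 than in ES, was called lower later, and was not called higher late than in ES. In the period fits Fgf5 and Pou3f1 in D5 and G6 met this. No member did in A3, where the period fit called no early rise. With each day given its own mean, 4 members met it in D5 and G6, where 3860 of 17743 genes were called higher early. In A3 1 member, Lin28a, then met it, beside 12.2% of genes called higher early. Pou5f1, Otx2, Utf1 and Sall4 were called lower late than in ES in both KO genotypes. Fgf5, Lin28a and Lin28b were called lower in neither. For Fgf5 the late difference from ES was -0.05 (95% interval -2.61 to 2.50) in A3 and -0.12 (-1.56 to 1.32) in D5 and G6, intervals too wide to show equal levels. With each day given its own mean, the late difference of Fgf5 in A3 was -2.30 (adjusted p = 0.00582), and that fit called Lin28a and Lin28b lower as well, so the lasting levels depend on how late days are averaged. Pou3f1 was called lower in D5 and G6 (-1.89 ± 0.57, adjusted p = 0.00646) and not in A3 (-1.97 ± 0.84, adjusted p = 0.0661), and the difference between these genotypes was not tested.

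By the median over members, the 17 late libraries declined at each later day in D5 and G6 and not in the other clones. As a percent of the clone's own mean at days 2 and 3, the median over 8 members was 21.9%, 45.2%, 34.2% and 17.8% in WT Dom (days 15, 21, 35 and 52) and 32.3%, 7.23% and 15.8% in WT Cast (days 15, 21 and 35). It was 6.37%, 21.8%, 17.6% and 0.0172% in A3, 21.5%, 6.04% and 1.91% in D5, and 23.8%, 2.01% and 0.140% in G6. In WT Dom and A3 the day 21 library was above the day 15 library, and in the Cast line day 15 was the highest in each clone. In the KO clones a step from day 15 to a later day is also a step between replicate numbers. All 8 members were below 10% in A3 at day 52, in D5 at day 35 and in G6 at days 21 and 35.

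By member, the median over late libraries was 32.9% for Fgf5, 32.7% for Lin28b, 29.6% for Lin28a, 16.7% for Sall4, 9.28% for Otx2, 8.35% for Pou3f1, 5.81% for Pou5f1 and 2.44% for Utf1. Fgf5 in WT Dom at day 21 was at 231% of its level at days 2 and 3. It was above 50% in 5 late libraries, as was Lin28b in 6 and Lin28a in 3, against 1 for Sall4 and 0 for each of the other 4 members. These libraries have no replicate, so a high or low day cannot be told from a high or low culture.

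**Figure D3:**
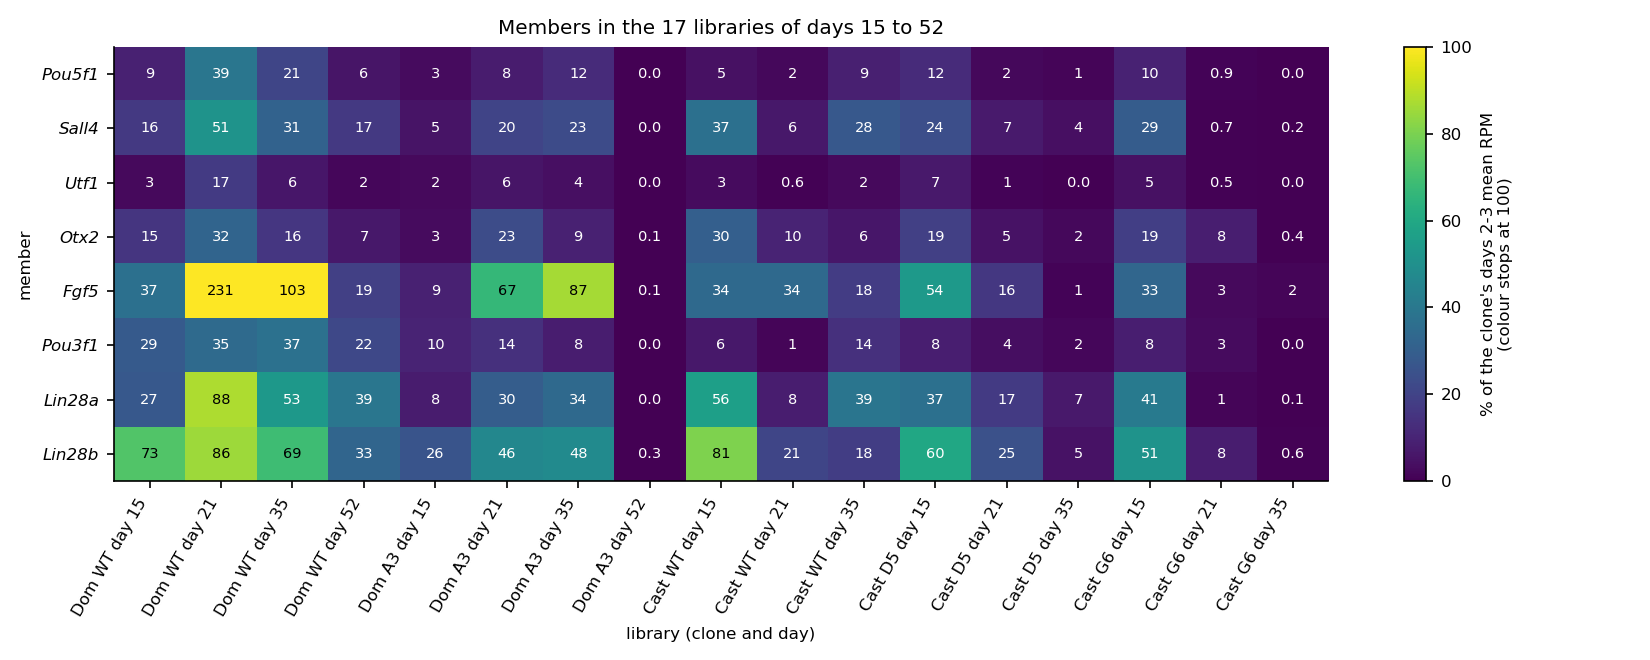
Level of each member in each of the 17 late libraries, as a percent of the mean RPM of the same clone at days 2 and 3 (colour and number). Rows of Fgf5, Lin28a and Lin28b hold the highest values, with Fgf5 at 231% in WT Dom at day 21, and the A3 day 52 and G6 day 35 columns are near 0.

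Marker genes of other cell types were read in the same late libraries. Of the neural precursor list, Nes (24.6 to 298 RPM late, 6.29 to 20.9 in ES) and Vim (88.5 to 732, against 14.5 to 30.7) were high. Fabp7, at 0.678 to 43.3 RPM late, was also above its ES range of 0 to 0.0996. Pax6 was at 0.213 to 9.39 RPM late and 4.28 to 10.2 in ES, and Olig2 at 0.875 RPM or less. Slc1a3, Hes5 and Msi1 enter only the sum of the list. Sox1 could not be read. The summed list was at 217 to 1014 RPM late and 187 to 237 in ES. Nes, Vim and Fabp7 were thus higher late than in ES, whereas Pax6 and Olig2, 2 defining genes of neural precursors, were no higher or near 0. With markers going both ways, these samples are called late libraries here.

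Fibroblast genes (8 of 8 detected in every late library, collagen genes among them) summed to 720 to 1158 RPM in ES and to 1258 to 20925 late. ES cells had been kept on fibroblast feeders, which were removed by pre-plating. The 5 highest sums, 20925, 17124, 16364, 12482 and 10275 RPM, were in D5, WT Cast and G6 at day 35 and in A3 and WT Dom at day 52, which include 3 of the 4 libraries with all members below 10%. Neuron genes summed to 122 to 1162 RPM late, against 339 to 465 in ES. Their highest sums were in A3 at day 52 (1162 RPM) and G6 at day 35 (1056 RPM). Mesoderm genes ranged from 1.51 RPM (A3, day 52, 3 of 6 markers at 0) to 242 (A3, day 21), trophoblast genes from 0.640 to 106, and endoderm genes from 81.7 to 333 against 36.6 to 60.9 in ES. Nanog, of the naive list, was at 0.0533 to 18.9 RPM late, highest in WT Dom at day 21, where 4 of 8 members were above 50% of their early level. At days 5 and 7, where members fell, mesoderm genes summed to 5.36 to 262 RPM (1.38 to 6.20 at days 2 and 3, 3.53 to 9.10 in ES), trophoblast genes to 38.4 to 268 (12.3 to 63.8 and 14.4 to 26.9) and endoderm genes to 37.4 to 419 (28.2 to 325 and 36.6 to 60.9). The part of these cell types in the members' levels was not tested.

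KO and WT libraries were compared within each period, with the day as a factor, to ask whether loss of SmcHD1 went with a different exit from pluripotency. No member was called in any of the 6 comparisons (edgeR). At days 2 and 3, 0 of 8 were called in A3, where 0.886% of 14784 genes were called. The other 5 comparisons called 0% of genes. Members with an unadjusted p below 0.05 numbered 2, 2 and 1 in A3 and 0, 1 and 1 in D5 and G6 over the successive periods, and DESeq2 called 0 in 5 comparisons and 1 (Fgf5, lower) in D5 and G6 late, beside 0.886% of genes. Utf1 did not pass the filter on low counts at late days.

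At days 2 and 3 the differences of A3 from WT Dom were small, from -0.12 ± 0.28 (Utf1) to 0.58 ± 0.25 (Fgf5, 95% interval 0.02 to 1.14, adjusted p = 0.393) on the log2 scale. Those of D5 and G6 from WT Cast lay between -0.07 ± 0.13 (Fgf5) and 0.18 ± 0.29 (Pou3f1). At days 5 and 7 Sall4 was lower in A3 by a difference of -0.47 (95% interval -0.74 to -0.20, unadjusted p = 0.00372, adjusted p = 0.471), with A3 libraries at 56.9 and 70.1 RPM at day 5 and 52.3 and 35.4 at day 7, below both WT Dom libraries of the same day, as for 7.43% of genes. Fgf5 in D5 and G6 differed by -0.66 (-1.17 to -0.15, adjusted p = 0.610). Neither difference passed the correction over all genes.

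At late days each of the 7 members tested had a lower fitted level in KO than in WT, by -1.47 ± 0.89 (Fgf5) to -2.19 ± 0.82 (Pou5f1) in A3 and by -0.71 ± 1.05 (Pou3f1) to -2.01 ± 0.71 (Fgf5) in D5 and G6. The direction turned for Pou5f1 in D5 alone (0.13) and without WT Cast day 35 (0.67), and for Pou3f1 without WT Cast day 35 (1.01) or G6 day 35 (0.0226). Their adjusted p-values were 0.451 or more in A3 and 0.347 or more in D5 and G6. Intervals were wide: that of Pou5f1 in A3 ran from -4.26 to -0.11, and that of Lin28a in D5 and G6 from -4.21 to 1.52. The A3 difference included the day 52 library, in which Lin28a and Pou5f1 were at 0 RPM. A fit that took its spread from the replicates of early days called 7 members lower in A3 late, beside 6.02% of 17113 genes, and 4 in D5 and G6 (Otx2, Fgf5, Lin28b and Sall4), beside 4.54% of 16327, a spread that leaves out differences between late cultures.

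The difference between the WT lines in the change was called for 0 of 8 members in either step (edgeR), and for 0% of 16038 genes. No member had an unadjusted p below 0.05 and none was called by DESeq2. The differences of the lines in the late fall ran from -1.07 ± 0.56 (Pou3f1) to 0.22 ± 0.53 (Otx2).

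Fragments that cover strain differences were assigned to the Cast or Dom allele, and the Cast share was taken where a replicate had at least 10 such fragments. Over all genes the share was 48.1% to 51.2% per replicate. Lin28a had a median share of 56.1% (49.5% to 64.3%, 63 replicates) and Sall4 of 53.6% (46.3% to 63.3%, 62 replicates). Lin28b and Fgf5, whose shares moved with day or line, are described with their neighbours on the chromosome. The other members had fewer allelic fragments, with medians of 129 for Pou5f1, 93.5 for Otx2, 41 for Utf1 and 14 for Pou3f1.

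The median Cast share of Lin28b was lower at each later stage. In ES it was 61.9% and 62.1% in A3, 62.6% and 61.1% in D5 and 62.2% in G6, from 1399 to 3022 fragments. In the same clones at days 2 and 3 it was 49.4% to 53.3% (12 replicates), below every ES value, and 360 of 5935 genes, 6.07%, separated without overlap in this comparison in either direction. The median difference was -11.1 percentage points, and 127 genes had one as large. At days 5 and 7 the KO share was 36.04% to 50.9%, where 10.2% of 5815 genes separated from ES. The WT clones, which had no ES libraries, were at 47.3% to 56.7% at days 2 and 3 and 40.3% to 51.4% at days 5 and 7. Over all clones these periods overlapped for Lin28b, and 0.304% of 6906 genes had no overlap.

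Late Lin28b shares were 27.6% to 47.1% in 16 of 17 libraries. The exception, A3 at day 52, was at 85.7% of only 14 fragments. In RPM, the Dom allele of Lin28b went from a median of 56.0 RPM in ES to 82.5 at days 2 and 3 and 95.8 at days 5 and 7 in the Dom line, and from 47.4 to 91.4 and 98.8 in the Cast line. The Cast allele was at 91.4, 95.8 and 89.1 RPM and at 78.8, 87.3 and 83.3 at the same stages. The ES values are of KO clones alone, whereas those of later days pool WT and KO. Genes within 10 Mb of Lin28b on chromosome 10 kept median Cast shares of 45.2% to 47.1% in all periods of both lines.

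The Cast share of Fgf5 depended on the line. At days 2 and 3 it was 63.8% to 71.8% in the Cast line (13 replicates, 881 to 2193 fragments) and 41.2% to 46.2% in the Dom line (8 replicates, 211 to 1027 fragments). The groups did not overlap, as was so for 12.8% of 7504 genes, and 37 genes had a difference between medians as large as its 21.3 percentage points. At days 5 and 7 the shares were 63.5% to 75.4% and 50.7% to 56.0%, where 12.9% of 7292 genes separated. Genes within 10 Mb of Fgf5 showed a shift of the same direction, with median Cast shares of 63.8% and 65.1% in the Cast line and 46.6% and 47.5% in the Dom line at the same stages. In ES the 2 libraries of A3 were at 56.8% and 60% for Fgf5, where its Dom-line neighbours had a median of 46.2%. Over chromosome 5 the medians were 64.7% and 65.4% against 46.7% and 47.5%. Fgf5 at 66.9% in the Cast line was between the quartiles of its neighbours (60.3% to 67.4%) at days 2 and 3, and above their upper quartile at days 5 and 7 (69.1%, quartiles 62.0% and 68.8%) and in ES (74.2%, quartiles 58.6% and 68.4%). In the Dom line too it was above at days 5 and 7 (53.3% against an upper quartile of 51.7%) and in ES (58.9% against 51.1%). Whether the higher total of Fgf5 in the Cast line goes with this was not tested.

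**Figure D4:**
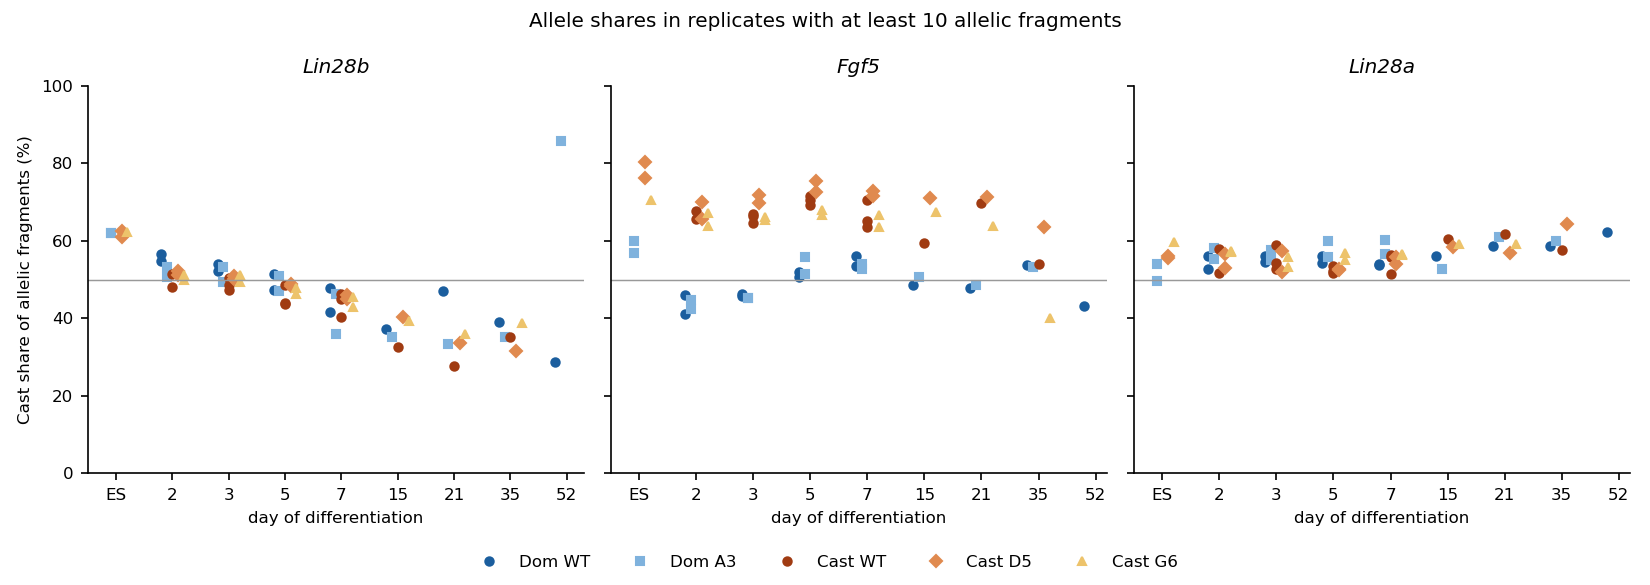
Cast share (percent of allelic fragments, y axis) of Lin28b, Fgf5 and Lin28a against day in each replicate with at least 10 allelic fragments, by clone. Lin28b drops from 61.1% to 62.6% in ES to 27.6% to 47.1% in all but 1 late library, Fgf5 lies higher in Cast-line clones, and Lin28a stays between 49.5% and 64.3%.

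Other genes of the same pathways were taken from 6 lists, chosen with earlier results of these data known, and members were left out of them. Of 14 naive genes, 7 were called lower in A3 and 12 in D5 and G6 from ES to days 2 and 3, with medians of -2.46 and -2.62 on the log2 scale (all genes 0.03 and -0.03), and none higher, where 7.64% and 19.8% of all genes were called lower. This was the step at which the members were level or higher. Background shares in the WT lines were 4.73% and 18.9% lower and 9.08% and 19.2% higher at days 5 and 7, and 11.7% and 14.3% lower and 14.3% and 18% higher late. Late against days 5 and 7, 5 and 11 naive genes were called lower in WT Dom and WT Cast (medians -1.48 and -2.79, all genes -0.04 and 0.00450), among them Zfp42 (REX1, -2.76 ± 0.88 and -3.78 ± 0.74), Fgf4 (-2.32 ± 0.55 and -3.44 ± 0.59) and Tcl1 (-1.98 ± 0.66 and -3.05 ± 0.74). Fgf4, a growth factor that drives exit from the naive state, also fell from days 2 and 3 to days 5 and 7 (-1.92 ± 0.53 and -2.12 ± 0.39).

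Of 14 other core genes, 1 was called lower in WT Dom and 9 in WT Cast (and 1 higher there) from days 2 and 3 to days 5 and 7, and 4 and 12 were called lower late, with medians of -1.62 and -2.76. Zscan10, a partner of the core factors, fell late by 1.49 ± 0.50 and 1.86 ± 0.36, Mybl2, a cell cycle factor, by 1.36 ± 0.39 and 1.56 ± 0.33, and Rif1 by 0.96 ± 0.25 and 1.40 ± 0.22. Sall1, which is in this list and in that of the Sall genes, fell before day 7 (-1.10 ± 0.21 and -1.34 ± 0.36), when Sall3 rose (2.42 ± 0.64 and 1.52 ± 0.51). Of the 3 other Sall genes none was called late in either WT line, where Sall4 fell. The lists share Nanog, Tdgf1, Zscan10 and Sall1.

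Of 24 other primed or formative genes, 3 were called higher and 4 lower in WT Dom, and 4 higher and 10 lower in WT Cast, from days 2 and 3 to days 5 and 7. The mesoderm gene T (6.51 ± 1.01 and 5.15 ± 1.09) led those that rose, followed by Fgf8 (3.77 ± 0.88 and 2.74 ± 0.66). Late, 1 was higher and 5 lower in Dom, and 2 higher and 10 lower in Cast, with medians of -0.73 and -0.89. Foxd3, a repressor in the primed epiblast, fell late by 2.35 ± 0.58 and 2.84 ± 1.01, and Cdh2 (N-cadherin), which neural and mesenchymal cells use, rose by 2.32 ± 0.56 and 3.08 ± 0.58.

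In the LIN28 and let-7 list (13 tested), changes went both ways: late, 3 were higher and 3 lower in WT Dom and 3 higher and 1 lower in WT Cast, with medians of 0.10 and 0.02. Hmga2, whose mRNA let-7 represses, rose late from medians of 126 and 162 RPM to 581 and 791 (2.36 ± 0.37 and 2.64 ± 0.18), while Lin28a and Lin28b levels were lower. Igf2bp2 rose by 1.16 ± 0.22 and 1.27 ± 0.23, and Mycn fell by 1.28 ± 0.29 and 1.14 ± 0.31 after a fall of 1.17 ± 0.28 and 1.36 ± 0.25 before day 7. Arid3a rose from days 2 and 3 to days 5 and 7 (2.28 ± 0.25 and 2.02 ± 0.29). Of the SOXB1 and POU class 3 relatives, 4 and 3 were tested in the WT lines, and 0 and 1 were called, lower, at late days.

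Against WT Dom at days 2 and 3, A3 had 5 of 14 naive genes called lower, beside the 0 of 8 members and 0.487% of all genes. They were Nanog (-1.07 ± 0.16), Zfp42 (-1.06 ± 0.14), Nr5a2 (-1.12 ± 0.17), Tfcp2l1 (-1.04 ± 0.19) and Dppa3 (-0.82 ± 0.16), and were named after their values were seen. One fit over the line, as an alternative, called only 1 gene in all there, 0.00584% of 17113, so at least 4 of these calls are lost in it. Within D5 and G6 none of the 14 naive genes was called against WT Cast at these days.

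The genes whose level followed a member most closely over 40 clone and day means were found among 13688 genes by Pearson's r of log2(RPM + 1), given as a description, since the points share clones and late libraries. Closest to Pou5f1 were Cbx7, a Polycomb protein (r = 0.985), D7Ertd715e (0.984) and Rps6kl1 (0.983). Lin28a was nearest to Lsr (0.985), the epithelial cadherin Cdh1 (0.971) and the member Sall4 (0.970), and Sall4 to Fam169a (0.980), Nup210 (0.978) and Hook1 (0.976). Utf1 was nearest to Kndc1 (0.975), Kcnh6 (0.974) and Slc47a2 (0.972).

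Primed members had lower best values, with Otx2 nearest to Drosha (0.962), Syk (0.960) and Ide (0.958), Pou3f1 to Plcxd1 (0.956), Tmem130 (0.943) and Ppp1cc (0.942), and Fgf5 to 1700007G11Rik (0.950), Shb (0.950) and Lrrc8d (0.942). Lin28b was nearest to Tspan13 (0.971), Rims2 (0.970) and Epb4.1l4a (0.965). Among the members, r was highest for Lin28a with Sall4 (0.970), Lin28a with Lin28b (0.945) and Pou5f1 with Sall4 (0.944), and lowest for Lin28b with Utf1 (0.626) and Fgf5 with Utf1 (0.652).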

How the data were processed

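The authors removed rRNA reads with Bowtie2 2.3.2, used STAR 2.4.2a against mm10 with strain differences masked, split uniquely aligned fragments by allele with SNPsplit, and counted them by strand over whole gene spans with featureCounts, leaving out fragments that overlap several genes. The deposited counts per gene (total and per allele) were used unnormalized, and 7 pairs of libraries marked R1 and R2 were summed. The authors' allelic ratios were not used. Levels are counts per 1000000 counted fragments, and log2 levels have a pseudocount of 1.

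Differences were tested over all genes passing edgeR's filter on low counts with edgeR 4.0.16 in R 4.3.3 (TMM, quasi-likelihood, Benjamini-Hochberg, adjusted p below 0.05), a procedure tested on simulated data. Alternatives were DESeq2 1.42.0, library totals, no filter, each day its own mean, single clones, 1 fit over a line, R1 and R2 kept apart, the replicate number as a block and leaving out each replicate. Same-numbered libraries of D5 and G6 deviated together on each of 4 days (correlations of 0.245 to 0.560), which pairs these clones. Their main fits held a term for clone and none for this pairing, so p-values of D5 and G6 may be too small. The block was not applied to comparisons with late days. Members and gene lists were chosen with earlier results of these data known. Named genes were the members, the 3 genes most like each (mean level of at least 1 RPM), and from each list up to 3 (late) or 2 (days 5 and 7) genes with the largest mean absolute change among those called in both WT lines. Promoters are RefSeq's (GRCm38.p6). Precision is limited by counts of few fragments and by 1 library per clone and late day.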

Additional observations from a re-analysis of the deposited data

How the results depend on the processing

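Counts of members called were within 1.5 times the main count in 90 fits with an alternative other than leaving out a replicate and not in 21, and in 200 fits without a replicate and not in 10. DESeq2 called 1 member in WT Dom from days 2 and 3 to days 5 and 7, 2 in A3 at that step, and 1 in D5 and G6 against WT Cast late. D5 alone gave 1 (days 2 and 3 against ES) and 0 (days 5 and 7 against days 2 and 3). G6 alone gave 0, 1, 3 (late against days 5 and 7) and 2 (late against ES). Beside them, 1152 of 16183 genes were called higher in D5 alone at days 2 and 3 against ES. In G6 alone 680 of 16321 genes were called at that step, and 3172 were called lower late against ES. With each day its own mean the counts were 1 in WT Dom and 6 in WT Cast, 1 of them higher (days 5 and 7). They were 1, 4, 8 and 8 in A3 (days 2 and 3, days 5 and 7, late, and late against ES). In D5 and G6 they were 4 and 8 (days 2 and 3, and late, against ES). Beside these, 4246 of 16785 genes were called lower in A3 late against days 5 and 7. In D5 and G6 3860 of 17743 genes were called higher at days 2 and 3 against ES. With 1 fit over a line, late KO against WT gave 7 in A3 and 4 in D5 and G6. That fit takes its spread from early replicates.

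With the replicate number as a block, 3 members were called in WT Dom (2 of them higher) and 5 in WT Cast from days 2 and 3 to days 5 and 7. It changed no call of a member in A3 or in D5 and G6. Same-numbered libraries of WT Dom and A3 had correlated deviations of -0.609 to -0.192 and those of WT Cast with D5 or G6 -0.221 to 0.555 over 18564 genes, so the numbers did not pair WT with KO. Within a clone, same-numbered libraries of different days correlated at -0.0218 to 0.496, and above 0.1 for each pair of days only in D5. A crossed pairing of A3 and WT Dom, added after seeing the data, called 0 members at days 2 and 3 and 0 at days 5 and 7.

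Leaving out a replicate gave 2 to 4 (A3 late against ES), 1 to 6 (A3 late against days 5 and 7), 1 to 2 (D5 and G6, days 2 and 3 against ES) and 0 to 1 (difference between WT lines, late, 1 without WT Cast day 15). Directions turned for Pou5f1 in A3 against ES (-0.0263 with DESeq2, -0.0209 to 0.170 without a replicate), Fgf5 late against ES (0.077 in A3 without a filter and -0.75 to 0.44 without a replicate, 0.41 in D5 alone and -0.90 to 0.13 without a replicate), Pou5f1 late in D5 and G6 against WT Cast (0.13 in D5 alone, -1.97 to 0.67 without a replicate), Pou3f1 there (-1.65 to 1.01), Fgf5, Lin28a and Lin28b in A3 at days 5 and 7 (-0.40 to 0.29, -0.146 to 0.0711 and -0.167 to 0.0558), and Fgf5 in WT Cast at days 5 and 7 (-0.24 to 0.12). The cause was not tested. Depth limits Utf1 and Pou3f1 most, as their late levels lie near the floor of 3 counts.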
